A study of Mus musculus with 11 samples.

Results

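The genes that write, copy, remove and protect DNA methylation were followed in single mouse embryos at the 8-cell stage. The 10 genes were chosen by symbol from the gene tables of the series, 10 of 54146 rows, and each symbol matched exactly 1 row. They are the maintenance factors *Dnmt1* and *Uhrf1*, the de novo genes *Dnmt3a*, *Dnmt3b* and *Dnmt3l*, the oxidising enzymes *Tet1*, *Tet2* and *Tet3*, the DNA glycosylase *Tdg* and the imprint-protecting zinc finger gene *Zfp57*. RNA of 11 whole embryos was sequenced, 5 of them *Prdm10* KO (mutant embryos) and 6 of them wild-type or heterozygous and labelled together as WT or HET (control embryos). All were C57BL/6 embryos collected at E2.5 from intercrosses of mice that carry 1 *Prdm10* allele without exon 5, a deletion made with an ACTB-Cre transgene. In the mutants both alleles lack exon 5, and embryos were sorted into the groups by whether exon 5 was detected in their cDNA, so that wild-type and heterozygous controls cannot be told apart. Batch 1 held 3 controls and 2 mutants amplified with 16 PCR cycles, and batch 2 held 3 controls and 3 mutants amplified with 13 cycles.

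In mammals, methyl groups are placed on cytosines of CpG pairs. DNMT1, guided by UHRF1, copies the marks onto the new strand after replication, while DNMT3A and DNMT3B, helped by the catalytically inactive DNMT3L, place new marks. The TET enzymes oxidise 5-methylcytosine, and TDG removes oxidised bases so that base excision repair can restore a plain cytosine. Methylation inherited from the gametes falls over the cleavage divisions before implantation, whereas imprinted regions keep their marks, for which maternally supplied DNMT1 and ZFP57 are known to be needed. These values are RNA levels only, and neither protein nor methylation was measured.

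Libraries held between 3534735 and 8265840 expected counts (the RSEM estimate of reads per gene). *Prdm10* itself lay at 16.5 ± 4.62 TPM (SD, n = 6) in controls and 6.66 ± 1.47 TPM (SD, n = 5) in mutants, and its highest mutant, at 8.16 TPM, lay below its lowest control, at 11.1 TPM. In normalised counts, which are scaled for depth and not for length, the *Prdm10* groups overlapped, at 104 to 202 in mutants and 124 to 381 in controls, and the log2 fold change of -0.66 ± 0.26 (SE) had an adjusted p of 0.216 by DESeq2. With effective lengths as an offset it was -1.29 ± 0.24 (SE) with an adjusted p of 3.11e-05. The effective length assigned to *Prdm10* was 4746 ± 326 nucleotides (SD, n = 5) in mutants and 3011 ± 334 (SD, n = 6) in controls. TPM is the share of transcripts after division by length, so it can be compared between genes. Of 10 genes that mark the early embryo, 8 were tested and 2, *Klf5* and *Krt18*, rose in the mutants by the test used here, where 1.42% of all genes tested were called. All 8 had an unadjusted p under 0.05, 7 higher and 1 lower in mutants, beside 11.9% of all genes. The call of *Klf5* was kept by edgeR and limma, that of *Krt18* was not (adjusted p 0.192 by edgeR and 0.134 by limma). DESeq2 on batch 2 alone called neither, and on batch 1 alone it called *Klf5* (adjusted p 0.00413) but not *Krt18* (0.280). *Pou5f1* was called by DESeq2 on batch 1 alone (adjusted p 0.0435) and not in the joint fit (0.125). *Nanog* in the same list had a log2 fold change of -1.05 ± 0.38 (SE) and missed the threshold (adjusted p 0.168 by DESeq2), and the most abundant of the 10, *Dppa5a*, lay at 1706 ± 326 TPM (SD, n = 6) in controls and 2337 ± 118 TPM (SD, n = 5) in mutants. The 10 embryo markers summed to between 1662 and 2789 TPM in controls and between 2658 and 3337 TPM in mutants. Of 14 genes of the oocyte's stored RNA, 12 were tested and none was called by DESeq2 (none had an unadjusted p under 0.05). Their median log2 fold change was -0.45, with 10 below 0 and 2 above, and it ran from -0.58 (without control 3) to -0.08 (without control 1) as each embryo was left out, with -0.22 without control 6 and -0.24 without mutant 1. The part of these genes in the result for *Dnmt1* was not tested. The sums of the oocyte genes ran from 61.3 to 194 TPM in controls and from 88.3 to 119 TPM in mutants, and the most abundant, *Zp3*, was 1 of the 2 above 0, at 34.8 ± 7.85 TPM (SD, n = 6) and 38.6 ± 13.4 TPM (SD, n = 5). Among markers of surrounding cells, the 8 cumulus and granulosa genes summed to between 19.4 and 81.1 TPM, nearly all of it *Amhr2*, with *Has2*, *Ptx3* and *Foxl2* at 0 in all 11 embryos. The 5 oviduct genes summed to at most 33.3 TPM, led by *Ovgp1*, and the 5 blood genes to at most 11.1 TPM, led by *Hba-a1*, with *Hbb-bt* at 0 in all 11 embryos. The part of these markers in the results below was not tested. In whole embryos, fewer cells and less RNA per cell cannot be told apart.

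In control embryos the 10 genes spanned from under 1 to nearly 30 TPM. *Tet1* had the highest mean, 28.5 ± 11.3 TPM (SD, n = 6), followed by *Dnmt3l* at 24.1 ± 5.66 TPM and *Dnmt3a* at 23.9 ± 7.96 TPM. These 3 were not separated beyond the spread between embryos, since *Tet1* was above *Dnmt3l* in 4 of 6 controls and *Dnmt3l* was above *Dnmt3a* in 2 of 6. A step followed, in which *Dnmt3a* exceeded *Dnmt1* in 6 of 6 controls. *Dnmt1* at 9.35 ± 3.99 TPM, *Dnmt3b* at 8.62 ± 4.89 TPM and *Zfp57* at 6.70 ± 1.91 TPM were next, and *Dnmt1* was above *Dnmt3b* in 2 of 6 controls and *Dnmt3b* above *Zfp57* in 4 of 6. *Tet2* at 5.09 ± 3.02 TPM was below *Zfp57* in 5 of 6 controls and above *Uhrf1*, at 2.94 ± 1.37 TPM, in 5 of 6. *Tet3* at 0.667 ± 0.481 TPM lay below *Uhrf1* in 6 of 6 controls, and *Tdg* averaged 0.663 ± 1.47 TPM because 1 control carried nearly all of its signal. By mean TPM, *Tet1* ranked 3425 and *Dnmt1* 5888 among all 54146 rows, and *Tet3* ranked 12837.

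The order of the mutants was much the same, with *Tet1* at 29.7 ± 7.17 TPM (SD, n = 5), *Dnmt3l* at 26.6 ± 7.50 TPM and *Dnmt3a* at 24.6 ± 10.5 TPM at its head. *Dnmt1* was the exception, since it lay below *Dnmt3b* in 5 of 5 mutants and in 4 of 6 controls, with means of 3.86 ± 1.16 TPM and 10.5 ± 3.66 TPM in the mutants. This difference in order between the groups was not tested.

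**Figure D1:**
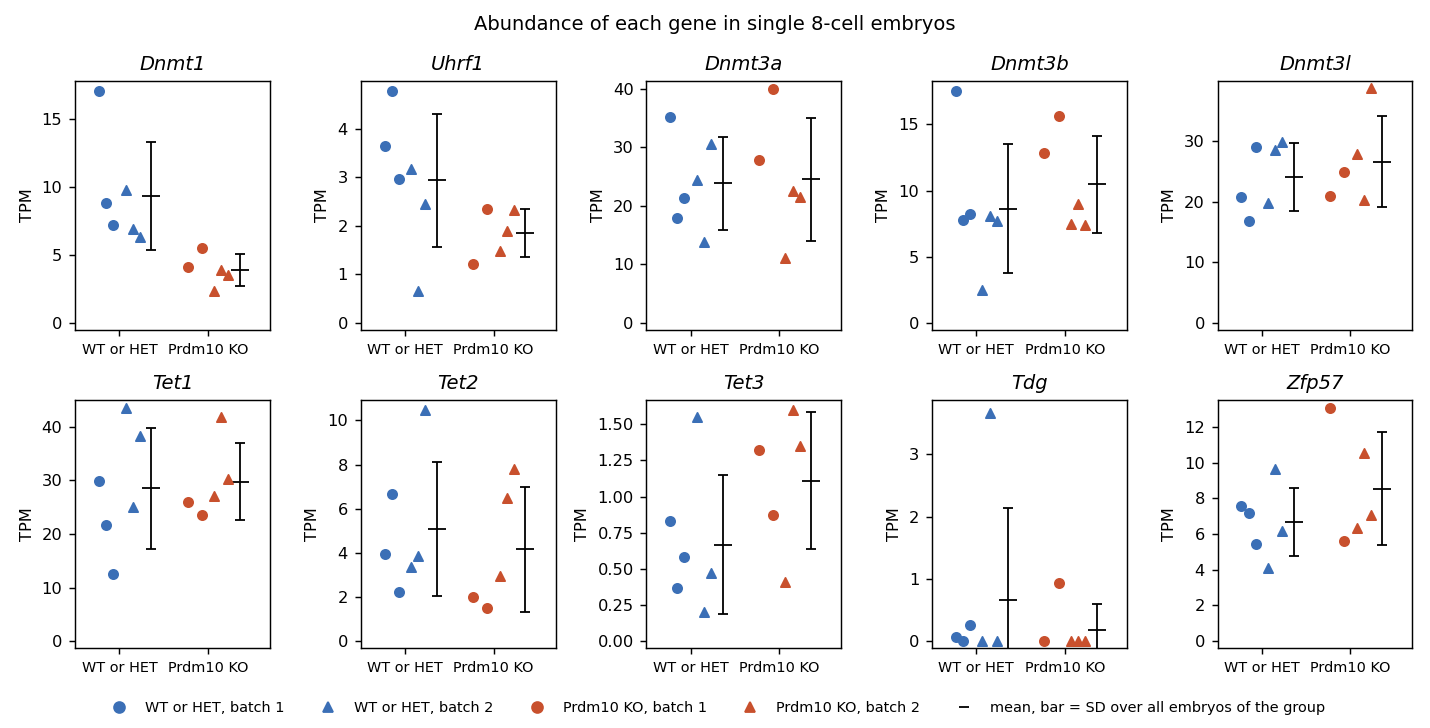
TPM of each of the 10 genes in single embryos, with the genes in separate panels that each have their own linear axis. Blue points are the 6 WT or HET controls and orange points the 5 *Prdm10* KO mutants, circles are batch 1 and triangles batch 2, and the black line and bar give the mean and SD of each group, with the lower end of the bar cut at the axis for *Tdg*. Only *Dnmt1* shows all 5 mutants, at 2.30 to 5.52 TPM, below all 6 controls, at 6.34 to 17.1 TPM.

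The question asked of these embryos was which of the 10 genes differed in RNA level when *Prdm10* was lost. None of the 9 genes that could be tested passed the threshold of an adjusted p under 0.05 with a mean normalised count above 10, by the DESeq2 Wald test with batch as a term. Over all 10448 genes tested, 1.42% passed. Of the 9, 1 (*Dnmt1*) had an unadjusted p under 0.05 in that fit, against 11.9% of all genes. edgeR called 0 of 9, where it called 0.271% of all genes, and limma on log2(TPM + 1) 0 of 9, where it called 0.21%. Each gave 1, again *Dnmt1*, at an unadjusted p under 0.05, against 8.7% and 9.95% of all genes. The median log2 fold change of the 9 was -0.01, with 4 above 0 and 5 below, beside a median of -0.0012 over all genes tested. *Tdg* had a mean normalised count of 3.66 and was not tested.

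*Dnmt1*, the maintenance methyltransferase, lies on chromosome 9 from 20907209 to 20959888 on the minus strand (GRCm38). The annotation gives it shorter non-coding transcripts, of 1252, 693 and 607 nucleotides, and 4 coding transcripts of 5248 to 5870 nucleotides. The coding ones begin at 20959888, 20952979, 20952623 and 20952605. The oocyte is known to make a shorter form of the enzyme from an upstream first exon. The stretches around the first 3 of these starts, from 250 bases before to 50 after each, are printed from RefSeq (GRCm38.p6, minus strand) because *Dnmt1* is the gene whose TPM separated the groups. Capitals mark each CpG pair, the letters that the enzyme itself methylates.

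Upstream start, chr9:20959839-20960138: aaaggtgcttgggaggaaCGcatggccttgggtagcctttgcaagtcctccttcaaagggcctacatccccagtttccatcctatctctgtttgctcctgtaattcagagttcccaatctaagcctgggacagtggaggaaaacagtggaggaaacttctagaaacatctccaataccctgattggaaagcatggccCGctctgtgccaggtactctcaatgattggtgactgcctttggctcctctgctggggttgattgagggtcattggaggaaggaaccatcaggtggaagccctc

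Middle start, chr9:20952930-20953229: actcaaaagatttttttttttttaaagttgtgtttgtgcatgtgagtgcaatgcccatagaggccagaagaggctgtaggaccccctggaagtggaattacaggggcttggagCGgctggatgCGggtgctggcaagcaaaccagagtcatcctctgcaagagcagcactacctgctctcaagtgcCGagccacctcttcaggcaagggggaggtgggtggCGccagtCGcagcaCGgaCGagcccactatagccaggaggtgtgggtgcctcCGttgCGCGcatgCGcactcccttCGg

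Downstream start, chr9:20952574-20952873: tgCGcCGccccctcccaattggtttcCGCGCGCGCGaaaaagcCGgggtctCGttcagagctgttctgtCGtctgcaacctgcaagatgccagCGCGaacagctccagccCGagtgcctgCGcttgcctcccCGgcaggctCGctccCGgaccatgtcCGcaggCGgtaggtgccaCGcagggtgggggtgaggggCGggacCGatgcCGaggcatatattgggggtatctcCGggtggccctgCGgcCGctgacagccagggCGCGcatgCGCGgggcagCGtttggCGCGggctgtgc

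The upstream window held 2 CpG pairs, the middle window 12 and the downstream window 33, beside a median of 7 over all 32851 windows of this length. The downstream window was thus CpG-rich, with 7.73% of all windows holding more, and the upstream window CpG-poor, with 76.7% holding more.

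PRDM10 is a zinc finger transcription factor, so the windows were searched for the letters that the study changed in the mutated form of its gel-shift probe. Capitals mark the 8 changed letters.

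Intact probe: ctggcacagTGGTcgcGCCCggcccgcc

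Mutated probe: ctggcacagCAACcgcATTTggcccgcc

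The motif these letters spell, TGGTNNNGCCC, was searched on both strands and was in 1.45% of all windows and in 0 of the 19 windows of the 10 genes. A looser form, TGGTNNNNNCC, which contains the first motif, was in 13.8% of all windows and in 3 of the 19, 1 each of *Dnmt1*, *Dnmt3l* and *Uhrf1*. In *Dnmt1* both matches, TGGTgactgCC on the gene's strand and TGGTtccttCC on the other strand, lay in the upstream window, with motif letters in capitals. A match of letters does not show a bound site, and a window without one does not show that a site is absent.

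In control embryos *Dnmt1* had a lowest, median and highest value of 6.34, 8.00 and 17.1 TPM. The 5 mutants, from mutant 1 to mutant 5, stood at 2.30, 3.85, 3.52, 4.12 and 5.52 TPM. No mutant overlapped a control, and mutants were also below every control of their own batch, in batch 1 (4.12 and 5.52 TPM against 7.22 to 17.1 TPM) and in batch 2 (2.30 to 3.85 TPM against 6.34 to 9.78 TPM). Such a separation, with all mutants below all controls, was seen in 0.582% of the 10489 genes whose mean normalised count exceeded 10, and one within both batches in 1.47%. The mean of the mutants was 0.437 of that of the controls in batch 1 and 0.420 in batch 2. An exact two-sided permutation test of the summed within-batch difference in TPM, over 200 regroupings within batches, gave p = 0.01 (0.005 is the smallest it can give). *Dnmt1* was singled out among the 10 genes with its values known and this p was not adjusted for that choice, so it restates the separation and is no independent evidence. Without mutant 4 or mutant 5, which leaves 1 mutant in batch 1, the exact p was 0.138 or 0.1.

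The reads behind *Dnmt1* were few, between 36 and 231 expected counts in controls and between 30 and 78 in mutants. After scaling for library depth, the normalised counts of controls had a lowest, median and highest value of 62.5, 96.1 and 189, while those of the mutants, in order, were 22.6, 42.7, 46.8, 50.2 and 80.7. Mutant 5 here lay above controls 2 and 3, which belong to the other batch, so that the groups overlapped across batches and not within them. In the fit across all genes, *Dnmt1* had a log2 fold change of -1.05 ± 0.33 (SE), a 95% interval from -1.70 to -0.40, an unadjusted p of 0.00149 and an adjusted p of 0.0761 by DESeq2. The difference was -0.95 ± 0.49 (SE) within batch 1 (unadjusted p 0.0507, adjusted p 0.731 by DESeq2). It was -1.13 ± 0.56 (SE) within batch 2 (unadjusted p 0.0440, adjusted p 0.645 by DESeq2). *Dnmt1* was thus lower in mutants in each batch, and in the joint fit it missed the threshold after adjustment.

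**Figure D2:**
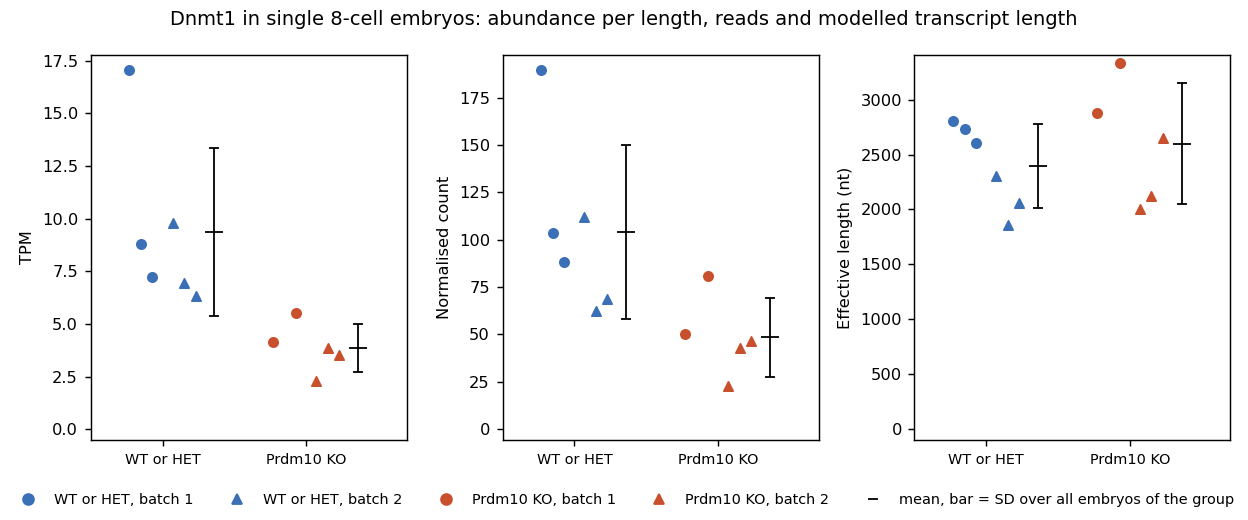
*Dnmt1* in each embryo as TPM (left), as the count normalised by DESeq2 (middle) and as the effective length in nucleotides that RSEM assigned (right), in 6 WT or HET controls (blue) and 5 *Prdm10* KO mutants (orange), with circles for batch 1, triangles for batch 2 and black bars for the mean and SD of each group. The TPM of the groups does not overlap, the normalised count of mutant 5, at 80.7, lies within the control range, and effective lengths differ more between batches than between groups.

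The effective length of a gene in RSEM is the mean usable length of its transcripts, weighted by the estimated share of each among the gene's transcripts, and it enters TPM but not the count. For *Dnmt1* it was 2605 to 2803 nucleotides in the controls of batch 1 and 2879 and 3336 in the mutants. In batch 2 it was 1856 to 2302 nucleotides in controls and 2000, 2127 and 2650 in mutants. Mutants were above all controls in batch 1 and overlapped them in batch 2, and the exact two-sided permutation test within batches gave p = 0.085. All of these lengths lay below the 5248 to 5870 nucleotides of the coding transcripts of *Dnmt1*. Its TPM and any fit with lengths as an offset thus depend on the shares that RSEM gave to coding and shorter transcripts, which were not tested. With the effective length of each embryo as an offset in DESeq2, *Dnmt1* stood at -1.19 ± 0.30 (SE) on the log2 scale and reached an adjusted p of 0.0129, past the threshold, in a fit that called 1.34% of 10505 genes. None of the other fits that tested *Dnmt1* called it. Adjusted p-values were 0.316 by edgeR's quasi-likelihood test and 0.257 by limma on log2(TPM + 1), and they ranged from 0.0616 to 0.382 when each embryo was left out in turn from the DESeq2 fit. The log2 fold change stayed between -1.20 and -0.89 in all of these.

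**Figure D3:**
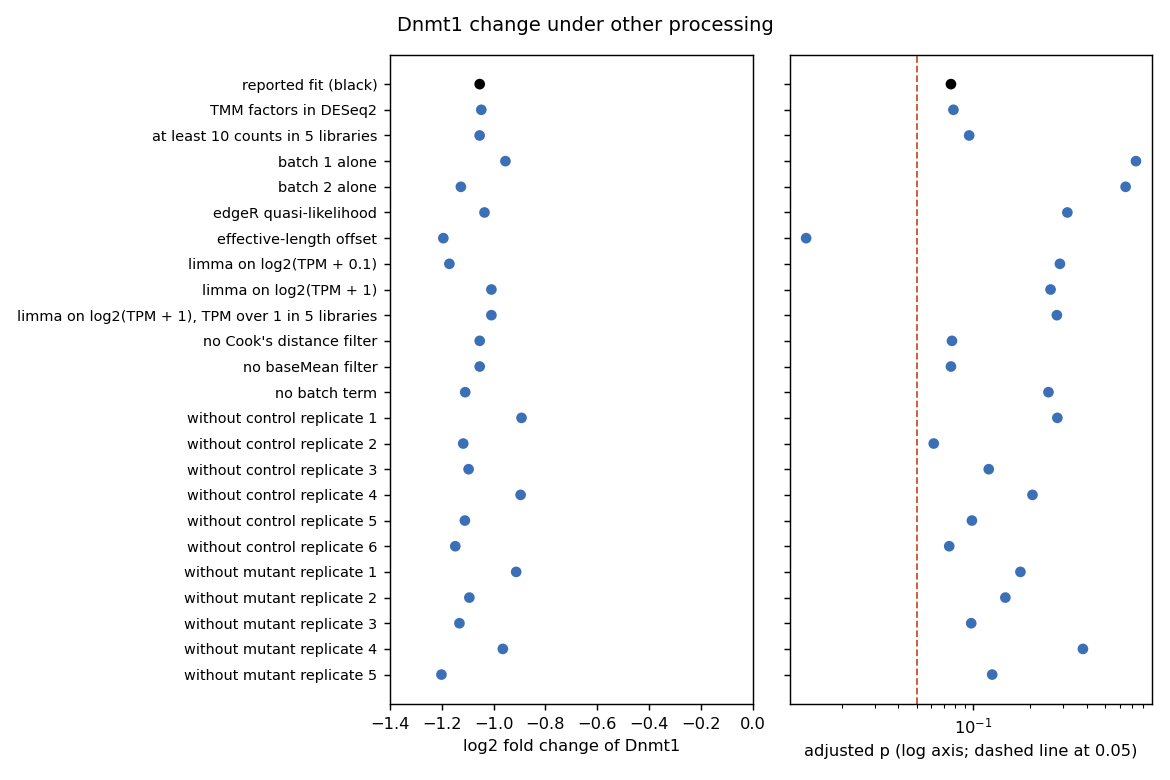
Log2 fold change of *Dnmt1*, mutant over control (left), and its adjusted p on a log axis (right), for the reported DESeq2 fit (black) and each other fit (blue), with a dashed line at an adjusted p of 0.05. All points on the left lie between -1.20 and -0.89, and only the fit with effective lengths as an offset, at 0.0129, lies to the left of the dashed line.

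*Uhrf1*, which brings DNMT1 to half-methylated DNA, lies on chromosome 17 from 56303321 to 56323486. Its lowest, median and highest values were 0.65, 3.07 and 4.78 TPM in controls, and the mutants in order had 1.48, 1.90, 2.32, 1.21 and 2.34 TPM. In batch 1 both mutants, at 1.21 and 2.34 TPM, lay below all 3 controls, at 2.97 to 4.78 TPM, whereas in batch 2 the groups overlapped, with control 2 the lowest of all at 0.65 TPM on 6 expected counts. The log2 fold change was -0.84 ± 0.47 (SE), its 95% interval from -1.77 to 0.08 and its adjusted p 0.506 by DESeq2. With effective lengths as an offset it was -0.57 ± 0.45 (SE), at an adjusted p of 0.677 by DESeq2. Mutant 3 had 13 expected counts and an effective length of 1088 nucleotides, beside 3317 in the controls of batch 2. Its normalised count of 12.7 lay above control 2, at 10.4, and below the other controls. *Uhrf1* shares 14.4% of its 51-base words with the pseudogene *Gm5648*, which was listed at 0 in all 11 embryos.

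*Dnmt3a*, the methyltransferase that sets most methylation in the growing oocyte, lies on chromosome 12 from 3806007 to 3914443. Its values were 13.9, 22.9 and 35.2 TPM (lowest, median and highest) in controls and 11.1, 22.6, 21.5, 27.8 and 39.9 TPM in mutants 1 to 5. The mutants thus held both the lowest and the highest value, and the log2 fold change was 0.16 ± 0.23 (SE), its 95% interval from -0.29 to 0.61 and its adjusted p 0.878 by DESeq2. In batch 2 the mean of the mutants was 0.799 of that of the controls in TPM and 1.13 of it in normalised counts. Their mean effective length there was 1.26 of that of the controls.

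*Dnmt3b*, the de novo enzyme that is most used around implantation, lies on chromosome 2 from 153649450 to 153687730. Controls had 2.46, 7.92 and 17.5 TPM (lowest, median and highest) and the mutants 7.47, 8.98, 7.36, 12.9 and 15.7 TPM. All mutants lay inside the control range, which was set by control 1 at the low end and control 4 at the high end. Its log2 fold change was 0.41 ± 0.31 (SE), with an interval from -0.19 to 1.02 and an adjusted p of 0.660 by DESeq2. *Dnmt3b* shares 9.63% of its 51-base words with *Dnmt3c*, the rodent copy that acts in the male germ line, which was itself present at 1.72 to 7.24 TPM in controls and 0.73 to 6.42 TPM in mutants, so reads could be divided between both.

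*Dnmt3l*, the cofactor without catalytic activity, lies on chromosome 10 from 78041947 to 78063622. Its controls had 16.7, 24.7 and 29.8 TPM (lowest, median and highest) and its mutants 27.8, 20.3, 38.8, 21.0 and 24.9 TPM. Only mutant 3 lay outside the control range. The log2 fold change of 0.07 ± 0.26 (SE), with an interval from -0.43 to 0.57, had an adjusted p of 0.965 by DESeq2.

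Among the oxidising enzymes, *Tet1* lies on chromosome 10 from 62804570 to 62908996 and is best known from embryonic stem cells and germ cells. It had 12.6, 27.5 and 43.5 TPM (lowest, median and highest) in controls and 27.0, 41.8, 30.2, 26.01 and 23.5 TPM in mutants, all inside the control range. With 281 to 1422 expected counts an embryo it was the most deeply read of the 10 genes, and its log2 fold change was -0.01 ± 0.26 (SE), with an interval from -0.51 to 0.50 and an adjusted p of 0.997 by DESeq2. Its sign turned with the scaling and with the embryos left out.

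*Tet2*, which lies on chromosome 3 from 133463679 to 133545139 and lacks the DNA-binding domain of the other family members, had 2.21, 3.90 and 10.5 TPM (lowest, median and highest) in controls and 2.96, 6.49, 7.81, 1.99 and 1.52 TPM in mutants. Both mutants of batch 1 lay below every control in TPM, and those of batch 2 did not. In normalised counts the batch 1 mutants, at 57.4 and 54.9, overlapped their controls, at 53.7 to 88.9, and their effective lengths, 6814 and 8219 nucleotides, were above the 3083 to 5166 of those controls. The log2 fold change was -0.29 ± 0.37 (SE), with an interval from -1.01 to 0.44 and an adjusted p of 0.856 by DESeq2.

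*Tet3*, the enzyme stored in the egg that oxidises the paternal genome in the zygote, lies on chromosome 6 from 83362373 to 83459084. Its values were 0.20, 0.52 and 1.55 TPM (lowest, median and highest) in controls and 0.41, 1.60, 1.35, 1.32 and 0.87 TPM in mutants, on 6 to 101 expected counts. On the TPM scale the mutants had the higher mean, 1.11 ± 0.472 (SD, n = 5), whereas the normalised counts put them lower, by a log2 fold change of -0.55 ± 0.54 (SE), an interval from -1.61 to 0.52 and an adjusted p of 0.783 by DESeq2. The scales differed because RSEM gave *Tet3* an effective length of 6627 to 10830 nucleotides in controls and of 2712 to 4105 in 4 of 5 mutants, with mutant 1 at 10830. With that length as an offset in DESeq2 the value was 0.72 ± 0.57 (SE) and the adjusted p 0.672, so no direction can be given for *Tet3*.

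*Tdg*, the glycosylase that removes oxidised cytosines, lies on chromosome 10 from 82629828 to 82650799. It was listed at 0 in 3 of 6 controls and 4 of 5 mutants, where the limit that a count of 0 allows (3 counts) ran from 0.363 to 0.729 CPM (counts scaled to the depth of the library). The other controls had 0.06, 0.26 and 3.66 TPM, and mutant 5 had 0.93 TPM, on at most 13.6 expected counts. The fitted log2 fold change, -2.03 ± 2.17 (SE), rested almost wholly on control 2 and mutant 5, and no direction can be given for *Tdg*. *Tdg* shares 29.1% of its 51-base words with *Tdg-ps*, 15.7% with *Gm9855* and 14.9% with *Gm5597*, and these 3 copies were listed at 0 in all 11 embryos. It also shares 5.70% with *Glt8d2*, which was listed at 0 in 10 embryos and at 0.73 TPM in 1 mutant.

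*Zfp57*, a KRAB zinc finger gene whose protein keeps methylation at imprinted regions, lies on chromosome 17 from 37001163 to 37010635. Controls had 4.12, 6.71 and 9.67 TPM (lowest, median and highest), and the mutants 6.37, 10.5, 7.09, 13.1 and 5.64 TPM. In TPM mutants 2 and 4 lay above all controls and the others among them. In normalised counts 4 of 5 mutants, at 55.8 to 87.1, lay above all controls, at 35.6 to 55.6, and mutant 5 among them at 39.3. The log2 fold change was 0.51 ± 0.31 (SE), with an interval from -0.10 to 1.11 and an adjusted p of 0.547 by DESeq2.

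**Figure D4:**
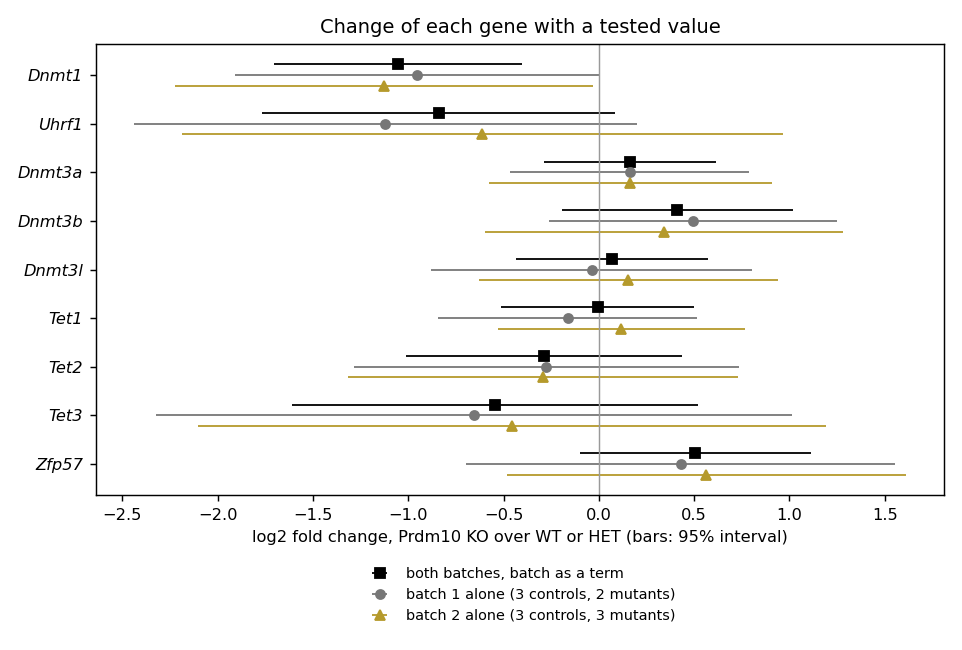
Log2 fold change, *Prdm10* KO over WT or HET, of the 9 genes with a tested value, from the DESeq2 fit of both batches (black squares), batch 1 alone (grey circles) and batch 2 alone (yellow triangles), with bars for the 95% interval. *Dnmt1* is the only gene whose interval in the joint fit, from -1.70 to -0.40, leaves out 0.

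An interaction term of batch and group asked whether mutants differed from controls to the same degree in both batches. None of the 9 genes tested passed by DESeq2, where 0.0382% of 10472 genes passed, and 0 had an unadjusted p under 0.05, where 4.3% of all genes did, and edgeR called 0 of 10, where it called 0% of all genes, with 1, *Tdg*, at an unadjusted p under 0.05, where 3.67% of all genes were. For *Dnmt1* the interaction was -0.17 ± 0.70 (SE), so that a difference between batches as large as the change itself lay within its error.

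Partners of these genes were counted in 4 lists of 46 genes in all, of which 37 were tested. DESeq2 called 0 of the 37, with 5 at an unadjusted p under 0.05, where 11.9% of all genes were. edgeR called 0 of 40, with 4 at an unadjusted p under 0.05 beside 8.7% of all genes, and limma called 0 of 37, with 3 beside 9.95%. *Dppa3*, whose protein shields the maternal genome from oxidation and holds UHRF1 back, was the most abundant of the partners of maintenance and protection, at 5132 ± 653 TPM (SD, n = 6) in controls and 4973 ± 395 TPM (SD, n = 5) in mutants. All 12 genes of that list were tested, with a median log2 fold change of -0.09, which ran from -0.19 (without control 3) to -0.05 (without control 5 or mutant 2) as each embryo was left out. *Kdm1b*, the histone demethylase that the oocyte needs to set maternal imprints, had 2.44 ± 0.774 TPM in controls and 1.48 ± 0.718 TPM in mutants, or -1.12 ± 0.40 (SE) on the log2 scale, and an adjusted p of 0.153 by DESeq2. *Kdm1b* stood at -0.75 ± 0.42 (SE) with effective lengths as an offset (unadjusted p 0.0730 by DESeq2) and at -0.49 ± 0.28 (SE) by limma on log2(TPM + 1) (unadjusted p 0.0987). It was -0.63 ± 0.75 (SE) in batch 1 alone and -1.50 ± 0.63 (SE) in batch 2 alone. *Lig1*, the ligase that joins newly copied DNA, stood 0.51 ± 0.25 (SE) higher on the log2 scale, at an adjusted p of 0.408 by DESeq2. Its unadjusted p was 0.0395 in that fit and 0.0854 with effective lengths as an offset in DESeq2. It was 0.0583 by edgeR and 0.134 by limma on log2(TPM + 1).

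Among 14 base excision repair genes, which finish the removal of oxidised bases, 10 were tested and 7 of them lay above 0, with a median log2 fold change of 0.41. The 3 with an unadjusted p under 0.05 by DESeq2 were all higher in mutants, where 5.74% of all genes were. *Apex1*, the endonuclease that cuts at the emptied site and the most abundant of the list, lay the other way, at 376 ± 57.1 TPM (SD, n = 6) in controls and 301 ± 48.6 TPM (SD, n = 5) in mutants, with -0.28 ± 0.14 (SE) on the log2 scale and an unadjusted p of 0.05004 (adjusted p 0.434) by DESeq2. By limma the genes of this list with an unadjusted p under 0.05 were *Xrcc1*, higher in mutants, and *Apex1*, lower, and *Parp1* and *Ung* were not among them. *Xrcc1*, the scaffold of the pathway, stood at 0.60 ± 0.21 (SE) on the log2 scale, at an adjusted p of 0.144 by DESeq2. *Parp1*, which senses the nicked strand, had 0.51 ± 0.21 (SE) on the log2 scale with an adjusted p of 0.285 by DESeq2. *Ung*, the uracil glycosylase, had 0.37 ± 0.18 (SE) with an adjusted p of 0.385 by DESeq2. In batch 2 alone the median of the list was 0.05 and in batch 1 alone 0.31, and it was 0.25 without mutant 4 and 0.26 without control 3.

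All 4 tested of the 7 readers of methylated CpG lay below 0, as did 5241 of all 10448 genes tested. The median of the 4 was -0.78, and 0 of them had an unadjusted p under 0.05 by DESeq2. The median was -0.26 without control 1, where 3 were tested, -0.56 without control 5 and -0.30 by limma on log2(TPM + 1). *Mbd3* was the most abundant of them, at 34.4 ± 8.12 TPM (SD, n = 6) in controls and 30.4 ± 3.38 TPM (SD, n = 5) in mutants, and each of the others averaged under 2 TPM in both groups. Of the 13 genes that supply the methyl donor or serve the TET enzymes, 11 were tested, with a median of -0.20 and 0 at an unadjusted p under 0.05 by DESeq2, led by *Mat2a*, which makes S-adenosylmethionine, at 904 ± 199 TPM (SD, n = 6) and 778 ± 191 TPM (SD, n = 5). The median of the list was -0.0077 without control 3, -0.06 without mutant 3, -0.08 without mutant 1 and -0.11 without control 2 or control 4. *Ogt* of this list was 0.73 ± 0.43 (SE) in batch 1 alone and -0.98 ± 0.32 (SE) in batch 2 alone. For the interaction of batch and group, *Ogt* alone of the partner genes had an unadjusted p under 0.05. That was 1 of 37 by DESeq2 and 1 of 40 by edgeR, beside 4.3% and 3.67% of all genes, and 0 were called. *Ahcyl1*, a relative of the enzyme that clears S-adenosylhomocysteine, had an unadjusted p of 0.0377 by limma (-0.67 ± 0.29, SE, adjusted p 0.468) and stood at -0.49 ± 0.31 (SE) by DESeq2, with an unadjusted p of 0.112. With effective lengths as an offset it was -0.85 ± 0.30 (SE), with an unadjusted p of 0.00494 and an adjusted p of 0.148 by DESeq2. *Cxxc5*, which binds unmethylated CpG, had an unadjusted p of 0.0376 on a mean normalised count of 4.06 and was not among the genes tested.

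**Figure D5:**
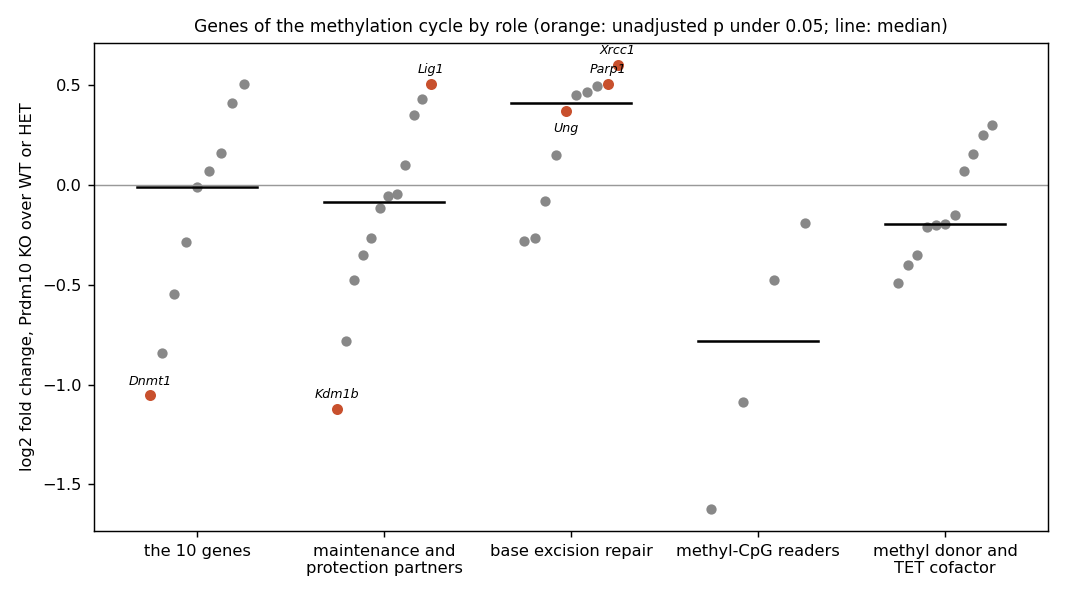
Log2 fold change, *Prdm10* KO over WT or HET, of each tested gene among the 10 genes and the 4 lists of partners, with a black line at the median of each list. Orange points have an unadjusted p under 0.05 by DESeq2 and are named, and none of the points passed after adjustment over all genes.

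The genes most like *Dnmt1* over the 11 embryos were found by Pearson's correlation of log2(TPM + 1) after each batch mean was subtracted, among 10488 other genes with a mean normalised count above 10. *Mlxip*, which encodes the glucose-sensing transcription factor MondoA, was the closest at 0.945, followed by *A430005L14Rik* at 0.940, *Hmox2*, a haem oxygenase, at 0.937, *Cnot6*, a subunit of the deadenylase complex, at 0.925 and the defensin *Defb42* at 0.910. These points share libraries and the difference between the groups, so the correlations are a description. Over the 6 controls alone they were 0.970, 0.932, 0.879, 0.959 and 0.946 in the same order, and over the 5 mutants alone 0.997, 0.0944, 0.631, 0.813 and -0.421, so that *A430005L14Rik* and *Defb42* did not follow *Dnmt1* within the mutants. *Cnot6*, at -1.22 ± 0.29 (SE) on the log2 scale and an adjusted p of 0.00517 by DESeq2, and *Hmox2*, with -0.67 ± 0.19 (SE) and an adjusted p of 0.0441, fell in the mutants, and the other 3 did not pass the test. The difference between the groups was left in when these genes were picked, so the choice favoured genes that are lower in mutants. The correlations of the other tested members with *Dnmt1* over the 11 embryos ran from -0.335 for *Zfp57* to 0.474 for *Uhrf1*. Over the 6 controls alone *Tet1*, *Tet3* and *Dnmt3a* had the highest, at 0.800, 0.605 and 0.545.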

How the data were processed

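Single embryos were made into full-length cDNA libraries with a Smart-seq2 protocol, without molecular identifiers and without strand information. The authors mapped reads with STAR (version 2.6.0c) to GRCm38.p6 and quantified genes with RSEM. The tables deposited for each embryo hold the expected count, the TPM, and other columns that the authors' RSEM run gave, of which the effective length was used here. The authors also deposited a comparison table, which holds fold changes and p-values and was not used.

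Expected counts were rounded to whole numbers and fitted over all genes with the DESeq2 (version 1.42.0) Wald test in R (version 4.3.3), with batch and group as terms and Benjamini-Hochberg adjustment over all genes. Genes with an adjusted p under 0.05 and a mean normalised count (baseMean) above 10 were called. edgeR (version 4.0.16), limma (version 3.58.1) on log2(TPM + 1) or log2(TPM + 0.1), TMM factors, effective-length offsets, other filters, no batch term, single batches and leaving out each embryo were alternatives. The fits were tested on simulated data. Sequence shared between genes was counted as identical words of 51 bases in the annotated transcripts. Gene positions were taken from GENCODE vM21, on the same build. The members, lists and tests were chosen with earlier results of these data known. Named genes were the 10 members, *Prdm10*, partner genes with an unadjusted p under 0.05 by DESeq2, the 5 genes most like *Dnmt1* and the most abundant gene of each list. *Mbd3*, *Ahcyl1*, *Ogt*, *Nanog*, *Pou5f1*, *Klf5*, *Krt18*, *Has2*, *Ptx3*, *Foxl2* and *Hbb-bt* were named after their values were seen. Nothing states that the embryos of a group came from separate litters, so p-values measure the spread between these embryos. Counting error alone is covered by the limits given for counts of 0.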

Additional observations from a re-analysis of the deposited data

Results flagged for a closer look

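In 20 sets of TPM values (10 genes in each group), 3 embryos stood far from the rest of their group, where chance flags about 1 in 20 sets of untied values. Control 4 had 17.1 TPM of *Dnmt1* against 6.34 to 9.78 TPM in the other 5 controls. Without that embryo the log2 fold change of *Dnmt1* was -0.90 with an adjusted p of 0.206 by DESeq2. The other 2 were of *Tdg*, which was at 0 in most embryos, and that chance rate does not apply to sets with such ties. Control 2 had 3.66 TPM of *Tdg* against at most 0.26 TPM in the other controls, and mutant 5 had 0.93 TPM where the other 4 mutants were listed at 0.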

How the results depend on the processing

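No member was called under any alternative except effective-length offsets, which called 1, *Dnmt1* (log2 fold change -1.19, adjusted p 0.0129 by DESeq2), and no partner gene was called under any alternative. The direction of *Dnmt1*, *Uhrf1*, *Dnmt3a*, *Dnmt3b* and *Zfp57* was the same in every fit that gave a value, while the sizes ranged from -1.12 (batch 1 alone) to -0.35 (limma) for *Uhrf1*, 0.039 (limma) to 0.31 (without mutant 1) for *Dnmt3a*, with 0.061 without mutant 3 and 0.095 without mutant 2, 0.24 (without control 1) to 0.55 (without control 4) for *Dnmt3b* and 0.30 (limma) to 0.68 (without mutant 5) for *Zfp57*. Without each embryo in turn, the log2 fold change of *Dnmt1* ranged from -1.20 to -0.89. Its summed difference in TPM ranged from -12.6 to -7.64, beside -10.7 with all embryos, and that in effective length from 353 to 810 nucleotides, beside 582, with an exact permutation p of 0.04 without control 1 only. In normalised counts 0 members, rather than 1, had all mutants below all controls. These permutation tests without an embryo, that overlap in normalised counts and the correlations over controls or mutants alone were chosen after seeing the data. Of the 10 members, 3 averaged above 10 TPM in controls and 5 did in the controls of batch 1.

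The log2 fold changes of the other 5 members, which were -0.007 (*Tet1*), -0.55 (*Tet3*), 0.069 (*Dnmt3l*), -0.29 (*Tet2*) and -2.03 (*Tdg*) with none called, turned sign under some alternatives. *Tet1* was 0.0078 by edgeR, 0.071 by limma on log2(TPM + 1) with or without the filter on low TPM, 0.077 on log2(TPM + 0.1), 0.060 with effective-length offsets, 0.083 without the batch term, 0.12 in batch 2 alone, and -0.19 to 0.17 without each embryo. *Tet3* was 0.35 by limma on log2(TPM + 1), 0.76 on log2(TPM + 0.1), 0.72 with effective-length offsets, and -0.78 to 0.15 (without control 1) without each embryo. *Dnmt3l* was -0.038 in batch 1 alone and -0.058 to 0.18 without each embryo, *Tet2* was -0.46 to 0.18 (without control 3), and *Tdg* was 2.09 in batch 1 alone and -4.78 to 1.14 (without control 2). The cause was not tested.

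Over all genes, 148 passed in the reported fit, 32 by edgeR, 22 by limma, 100 with a mean count above 100, 51 without the batch term, 78 in batch 1, 48 in batch 2, and 86 (without mutant 2, with 91 without mutant 5) to 264 (without control 2) without each embryo. No paired analysis was possible because replicate numbers follow the order of the samples and pair no embryos. *Tet3*, *Uhrf1* and *Tdg* rested on the fewest counts and had the widest intervals of the 10 genes.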
